A study of Homo sapiens with 9 samples.

Results

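Imprinted genes are expressed mainly from the copy inherited from 1 parent, and here a set of 34 of them was followed in cells in which the B2M promoter was targeted for silencing. The members were taken by symbol from the 59653 genes of the deposited count table, and all 34 were found. Of these, 20 passed the filter on low counts of edgeR (minimum count 10) and were tested, and 14 did not pass. B2M encodes the light chain of MHC class I, and none of the members lies near it: the 5 on chromosome 15 are between 19.3 Mb (UBE3A) and 21.1 Mb (MAGEL2) away, and the other 29 lie on 11 other chromosomes.

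RNA came from K-562, an established human myeloid leukaemia line with erythroid features, in a version whose genotype is given as B2M tdTomato. The 9 libraries form 3 groups of 3 that share this line and genotype. One group was mock treated. In the other groups the tripartite ETR, a dCas9-based fusion directed to the B2M promoter, was given with either a full-length gRNA or a gRNA of 16 nt. The labels describe delivery of mRNA and gRNA by nucleofection, give no time after delivery and no cell sorting, and do not say what the mock cells received. Separate cultures are not stated for the replicates, and the p-values therefore cover only library-to-library spread, possibly technical. As this is bulk RNA, fewer expressing cells and less RNA per cell cannot be told apart.

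At an imprinted domain, DNA methylation laid down in 1 parental germline marks a control region on that parent's copy. The mark is kept through cell division by DNMT1, and in the early embryo it is protected by the zinc finger proteins ZFP57 and ZNF445 together with TRIM28. It sets which copy of the neighbouring genes is read, through insulators such as the CTCF sites beside H19, or through long noncoding RNAs such as KCNQ1OT1 that silence genes around them. Because expression depends on methylation, these genes are a place to look for effects, away from the target, of repressor fusions that can write methylation. Only RNA was measured, neither methylation nor the parental copy, so the values describe total transcript level.

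The targeted gene was first compared. B2M counts were 3681, 4304 and 3718 in mock, 309, 268 and 216 in the full-length group and 462, 714 and 423 in the 16-nt group. No 2 groups overlapped. B2M fell by 3.84 on the log2 scale with the full-length gRNA (SE 0.12, edgeR quasi-likelihood test, adjusted p = 3.50e-11) and by 2.85 with the 16-nt gRNA (SE 0.11, adjusted p = 1.08e-09). An exact two-sided permutation test of 3 against 3 libraries gave p = 0.10 for each contrast, the smallest it allows. Library totals ranged from 23763529 to 33260228 counts. The first principal component, with 33.1% of the variance, set the replicate 3 libraries of both gRNA groups (30.7 and 26.9) apart from the other 7 (-19.1 to 6.84). Member estimates without these 2 libraries are given below. All 11 K-562 identity genes passed the count filter. Of 20 markers of other cells 6 passed, with EPCAM, KRT18 and KRT19 the most abundant of them, and the B-cell marker MS4A1 was at 0. The summed CPM (counts scaled to a common library size) of this list was 266 to 350 in mock, 287 to 325 in the full-length group and 276 to 351 in the 16-nt group.

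The promoters of 4 members are shown first. All 4 hold the hexamer marked below, which 6 of the 19 members with a promoter entry held. They therefore do not represent the members as a whole. SNURF and NAP1L5 had no read in any library, L3MBTL1 had the largest estimate against mock, and GRB10 was abundant. Capitals mark the hexamer TGCCGC, or its reverse complement GCGGCA, the core of the sequence that ZFP57 reads when its CpG is methylated. The windows come from RefSeq on GRCh38.p14, are written 5′ to 3′ on the gene's strand, and were trimmed to bases with no annotated exon. They lie at chr15:24954737-24954926 (SNURF, plus strand), chr4:88697830-88698079 (NAP1L5, minus strand), chr20:43507447-43507679 (L3MBTL1, plus strand) and chr7:50793463-50793703 (GRB10, minus strand). The SNURF and L3MBTL1 windows lie within the spans that the deposited table gives to SNRPN and L3MBTL1.
SNURF: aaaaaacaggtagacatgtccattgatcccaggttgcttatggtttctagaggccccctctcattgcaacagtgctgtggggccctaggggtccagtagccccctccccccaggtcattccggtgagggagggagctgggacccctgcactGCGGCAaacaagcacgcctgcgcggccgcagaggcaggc
NAP1L5: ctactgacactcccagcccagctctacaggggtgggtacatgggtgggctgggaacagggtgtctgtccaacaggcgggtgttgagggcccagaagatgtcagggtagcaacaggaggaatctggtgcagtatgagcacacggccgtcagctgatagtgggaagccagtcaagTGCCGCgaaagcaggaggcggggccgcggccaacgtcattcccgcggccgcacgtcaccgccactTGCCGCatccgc
L3MBTL1: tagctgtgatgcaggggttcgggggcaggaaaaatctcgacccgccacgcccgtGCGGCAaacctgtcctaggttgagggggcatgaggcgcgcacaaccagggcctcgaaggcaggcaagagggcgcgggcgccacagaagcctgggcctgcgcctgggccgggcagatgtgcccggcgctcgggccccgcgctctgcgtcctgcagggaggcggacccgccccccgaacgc
GRB10: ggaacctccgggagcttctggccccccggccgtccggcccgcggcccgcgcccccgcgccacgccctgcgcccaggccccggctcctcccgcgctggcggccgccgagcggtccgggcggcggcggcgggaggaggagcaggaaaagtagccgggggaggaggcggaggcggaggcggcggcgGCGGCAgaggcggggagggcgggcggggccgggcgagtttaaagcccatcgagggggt

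These windows hold 6, 16, 24 and 37 CpG dinucleotides in the order printed. Of the 34 members, 19 matched the promoter table. The full window was the 250 bases before the start listed first for each gene. In it 6 of the 19 (MEG3, SNURF, NDN, L3MBTL1, GRB10 and NAP1L5) held the hexamer on either strand. This is 31.58%, against 12.63% of the 27305 promoters of all genes. Members had 1 to 6 listed starts, the first listed need not be the most upstream, and the others were not counted. By expression state, 2 of the 13 members that passed the filter held it, and 4 of the 6 that did not. The members' windows had a median of 16 CpGs (range 4 to 37) and those of all genes a median of 11. A match is a description of the letters and not a bound site.

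In mock cells the imprinted domains fell into expressed and silent ones, and several domains held both kinds of gene side by side. Levels are compared between genes as CPM per kb of exon. DLK1, a membrane protein related to the Notch ligands that is made by embryonic and some progenitor cells, stood first at 331 ± 57.9 (SD, n = 3) and above 99.5% of the tested genes. H19, a noncoding RNA usually made from the maternal copy, followed at 109 ± 22.0, above 97.8%. GNAS, which encodes the stimulatory G protein alpha subunit, was at 37.4 ± 4.01. IGF2R, the receptor that carries IGF2 to the lysosome, was at 23.9 ± 1.46, and its libraries did not overlap those of the next gene in rank, CDKN1C, an inhibitor of cyclin-dependent kinases, at 17.6 ± 4.47. The ranges of mean ± SD overlapped for CDKN1C, MEST (14.4 ± 1.70), PHLDA2 (12.8 ± 1.93) and GRB10 (12.5 ± 1.25). The mock libraries of CDKN1C nevertheless all lay just above those of GRB10. The lowest tested levels were those of L3MBTL1 (0.101), ZDBF2 (0.0655) and KCNK9 (0.147).

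**Figure D1:**
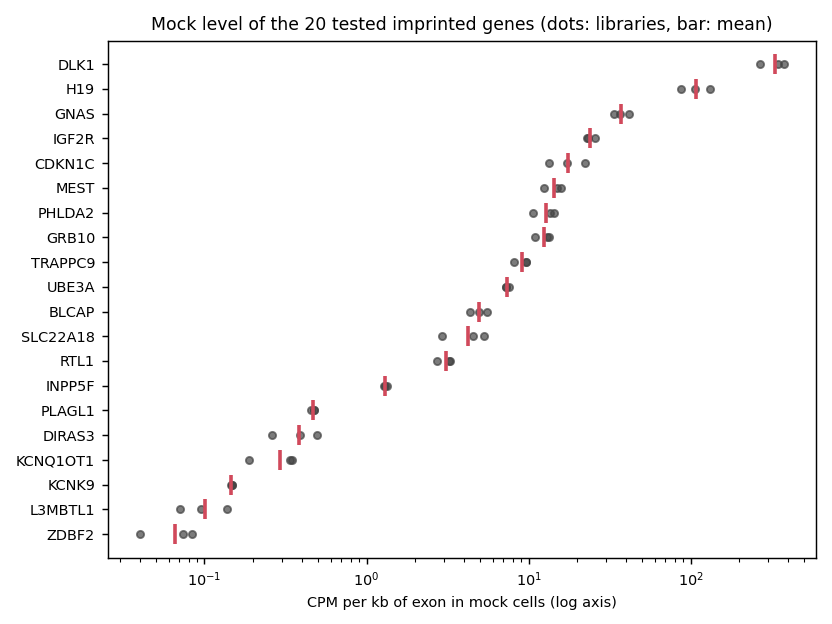
Level of the 20 tested imprinted genes in mock cells, as CPM per kb of exon on a log axis, with a dot per mock library and a red bar at the mean of 3. The genes run from DLK1 at 331 down to ZDBF2 at 0.0655.

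The domain of IGF2 and H19 on chromosome 11 was read almost only at H19 (chr11:1995176-2001470 on GRCh38). H19 counts were 7770, 12152 and 6952 in mock, 7584, 8773 and 5882 in the full-length group and 7730, 7915 and 6991 in the 16-nt group. IGF2, the growth factor usually made from the paternal copy, had 0 counts in each mock library, 1, 0 and 1 in the full-length group and 0, 0 and 1 in the 16-nt group. Per base of exon, the ratio of H19 to IGF2 in mock was 19354 with a floor of 3 counts over the group put in for IGF2. The lower end of its exact interval, which covers counting error only, was 15738.5. Both values use all exonic bases. With only the bases of IGF2 free of other genes as its length, both would be lower. Other annotated genes cover 72.1% of the exonic bases of IGF2, which leaves 1744 bases free, and how reads over several genes were counted is not given in the sources used here.

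In the neighbouring KCNQ1OT1 domain 4 of 5 members passed the filter. CDKN1C counts were 1072, 1764 and 908 in mock, 1290, 1145 and 1044 in the full-length group and 1172, 1281 and 1048 in the 16-nt group. PHLDA2, which restrains placental growth, had 244, 420 and 341 in mock, 305, 360 and 344 in the full-length group and 341, 410 and 378 in the 16-nt group. The groups overlapped for both genes. SLC22A18, a transporter, had a mock mean of 22.2 ± 6.30 CPM (SD, n = 3) and differed by 0.06 or less on the log2 scale in each gRNA group. KCNQ1, a potassium channel subunit, had only 70 counts over the 9 libraries (4 to 15 each) and did not pass, and CDKN1C was 278-fold higher per base in mock (95% exact interval 187 to 434, counting error only).

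On chromosome 14 the protein-coding genes DLK1 and RTL1, usually read from the paternal copy, were on, and the noncoding RNAs MEG3 and MEG8, usually maternal, were nearly silent. DLK1 (chr14:100725705-100738224) counts were 45729, 63481 and 38450 in mock, 48420, 49379 and 41485 in the full-length group and 44350, 50155 and 44206 in the 16-nt group. MEG3 had 0, 2 and 0 counts in mock, 2, 1 and 7 in the full-length group and 2, 1 and 4 in the 16-nt group. Its highest counts were in the replicate 3 libraries of both gRNA groups, the same ones that stood apart on the first component. MEG8 had 2, 5 and 3 counts in mock, 1, 0 and 1 in the full-length group and 0, 1 and 2 in the 16-nt group, so every mock library had at least as many as any gRNA library. Neither gene passed the filter, so neither was tested in the main fit. In edgeR without the filter and in DESeq2, neither was called or under an unadjusted p of 0.05 in any comparison.

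Most of the paternally expressed genes of the Prader-Willi region on chromosome 15 had no reads. SNRPN (chr15:24823637-24978723), a splicing protein, SNURF, the reading frame upstream of it whose promoter is printed above, and MAGEL2, a ubiquitin ligase cofactor, were at 0 in all 9 libraries. A count of 0 over 248009728 counts allows a level of up to 0.0121 CPM. NDN, a growth suppressor of the same family as MAGEL2, had 1 count, in full-length gRNA replicate 2. No other gene covers the exons of NDN or MAGEL2, while 1911 exonic bases of SNRPN and 361 of SNURF are free of other genes. UBE3A, a ubiquitin ligase that is maternal in neurons and read from both copies elsewhere, had 3622, 4430 and 3817 counts in mock. Its ratio to SNRPN per base of exon in mock was 708 with a floor of 3 counts put in for SNRPN. The lower end of the exact interval, which covers counting error only, was 576. With only the free bases of SNRPN as its length, both values would be lower.

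PEG3 and ZIM2 on chromosome 19 and PEG10 and SGCE on chromosome 7 were also silent. PEG10, a retrotransposon-derived gene, and SGCE, a sarcoglycan, start next to each other; PEG10 had 1 count in mock replicate 2 and SGCE 1 count in 16-nt gRNA replicate 3. PEG3, a zinc finger protein, had 1 count in full-length gRNA replicate 1, and ZIM2 had none. NNAT, a small membrane protein of neurons, was at 0 in every library, while BLCAP, in whose intron NNAT lies, had 858, 1248 and 1191 mock counts. NAP1L5, a single-exon gene related to nucleosome assembly proteins, was at 0 throughout. In all, 6 members had no count in any library (ZIM2, SNRPN, SNURF, MAGEL2, NNAT and NAP1L5), 5 had 1 to 3 counts in total (IGF2, PEG3, PEG10, SGCE and NDN), and 3 had between 15 and 70 (KCNQ1, MEG3 and MEG8). None of the 11 members at 0 to 3 counts had more than 1 count in a gRNA library. That set was drawn on the total over all libraries, gRNA libraries included, so this is no test of silent genes coming on. MEG3, with 0, 2 and 0 counts in mock and up to 7 in a gRNA library, lies outside the set.

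**Figure D2:**
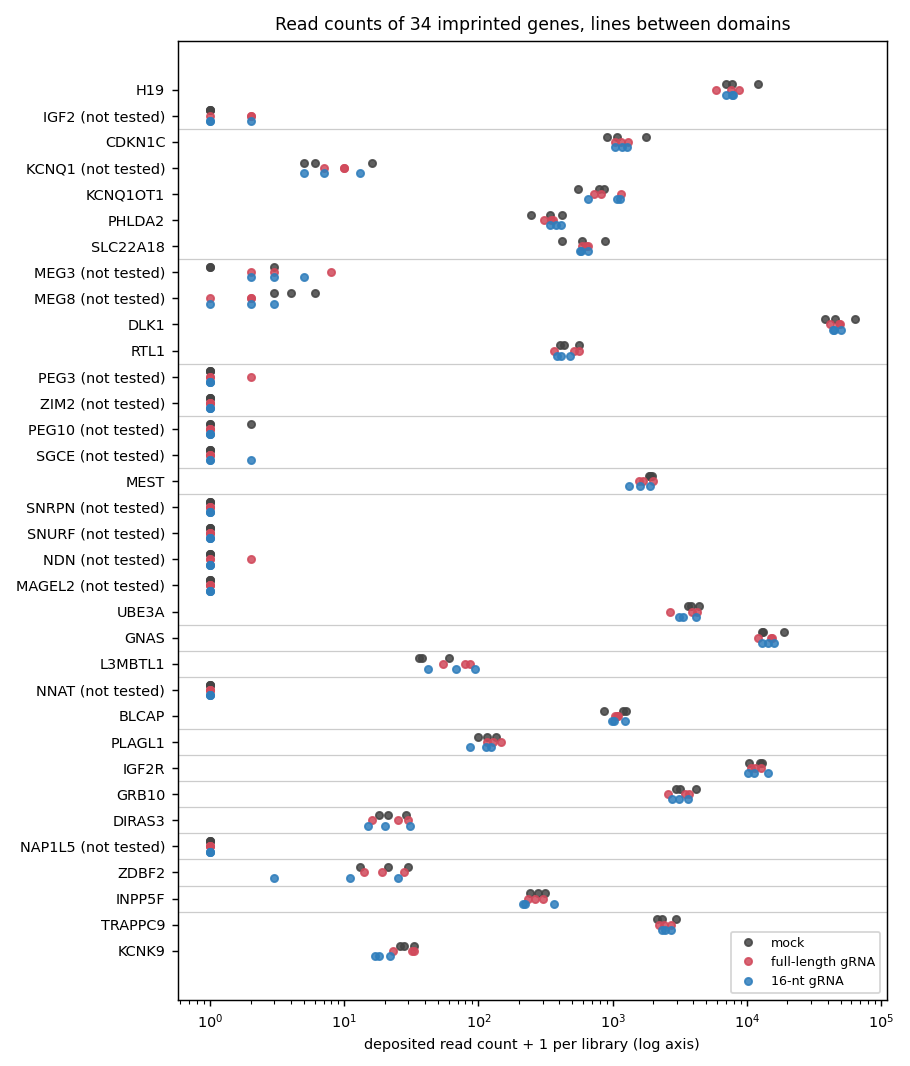
Deposited read count plus 1 in each of the 9 libraries for the 34 imprinted genes on a log axis, grouped by domain, with mock in black, full-length gRNA in red and 16-nt gRNA in blue. A dot at 1 is a count of 0. The 3 colours lie over each other for most expressed genes, and 11 members have 0 to 3 counts in total.

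By the copy that is usually read, 5 of 8 maternal genes passed (H19, CDKN1C, PHLDA2, SLC22A18 and KCNK9) and 8 of 19 paternal genes (KCNQ1OT1, DLK1, RTL1, MEST, L3MBTL1, PLAGL1, DIRAS3 and ZDBF2). All 6 members with no read are usually paternal. The 5 genes whose imprinting depends on tissue (UBE3A, BLCAP, IGF2R, GRB10 and TRAPPC9) and the 2 where it depends on the promoter (GNAS and INPP5F) all passed. These classes are background knowledge and were not measured here, and counts per gene do not separate promoters.

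No imprinted gene passed the test with the full-length gRNA. In edgeR's quasi-likelihood test 0 of the 20 tested members had an adjusted p under 0.05, and the lowest adjusted p was 0.992. Over all 15213 tested genes 1 was called, B2M itself, which is 0.00657%. At an unadjusted p under 0.05, 1 member (L3MBTL1) stood against 2.86% of all genes, and DESeq2 called 0 members and had L3MBTL1 alone under that p. Estimates were positive for 11 members and negative for 9, with a median of 0.02 on the log2 scale against 0.00 for all genes. The 95% confidence interval stayed within a 2-fold change for 18 members, the exceptions being L3MBTL1 and ZDBF2, and within 1.5-fold for 15. These are 90% and 75% of the members, against 85.9% and 70.5% of all genes. At a mean log2 CPM of at least 1 they were 94.1% and 88.2%, against 99.0% and 90.9%.

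The 16-nt gRNA also gave no call among the members. In edgeR 0 of 20 members were called (lowest adjusted p = 0.978) and B2M was the 1 gene of 15213 called, 0.00657%. MEST and KCNK9 were under an unadjusted p of 0.05, which 2.48% of all genes were, and DESeq2 called 0 members with MEST alone under that p. Estimates were positive for 7 members and negative for 13, with a median of -0.03. That is 35% positive, against 50.6% of all genes, whose median was 0.00. The interval stayed within 2-fold for 17 members, without L3MBTL1, ZDBF2 and KCNK9, and within 1.5-fold for 15. These are 85% and 75% of the members, against 85.6% and 70.4% of all genes. At a mean log2 CPM of at least 1 they were 94.1% and 88.2%, against 98.9% and 90.7%.

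The gRNA lengths were then compared with each other. Of 20 members 0 were called (lowest adjusted p = 1.00, edgeR), B2M again was the only gene called (0.00657%), and the estimate for B2M was 0.99 higher with the 16-nt gRNA (SE 0.12, adjusted p = 0.00580). That call was lost without full-length replicate 2 (adjusted p = 0.123) and with only these groups fitted (adjusted p = 0.130), but not with only these groups and the replicate block (adjusted p = 0.00205). The B2M estimate was 0.86 to 1.09 with 1 library left out. In the fit without a replicate block KCNK9 was the only member under an unadjusted p of 0.05, against 0.927% of all genes. DESeq2 had none. With the block PLAGL1 was under it as well, and the share of all genes was not counted there. With both ETR groups together against mock, 0 members were called (lowest adjusted p = 0.928, 0.00657% of all genes called). L3MBTL1 was the only member under an unadjusted p of 0.05, against 3.44% of all genes, and DESeq2 again called 0.

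Without the replicate 3 libraries of both gRNA groups, the 20 estimates ranged from -0.15 to 0.55 with the full-length gRNA, where 6 changed sign (BLCAP, GRB10, IGF2R, PHLDA2, UBE3A and ZDBF2). They ranged from -0.68 to 0.28 with the 16-nt gRNA, where 2 changed sign (CDKN1C and INPP5F). Between the gRNA groups they ranged from -0.80 to 0.22, and 3 changed sign (BLCAP, H19 and INPP5F). None of the members was called without these libraries.

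**Figure D3:**
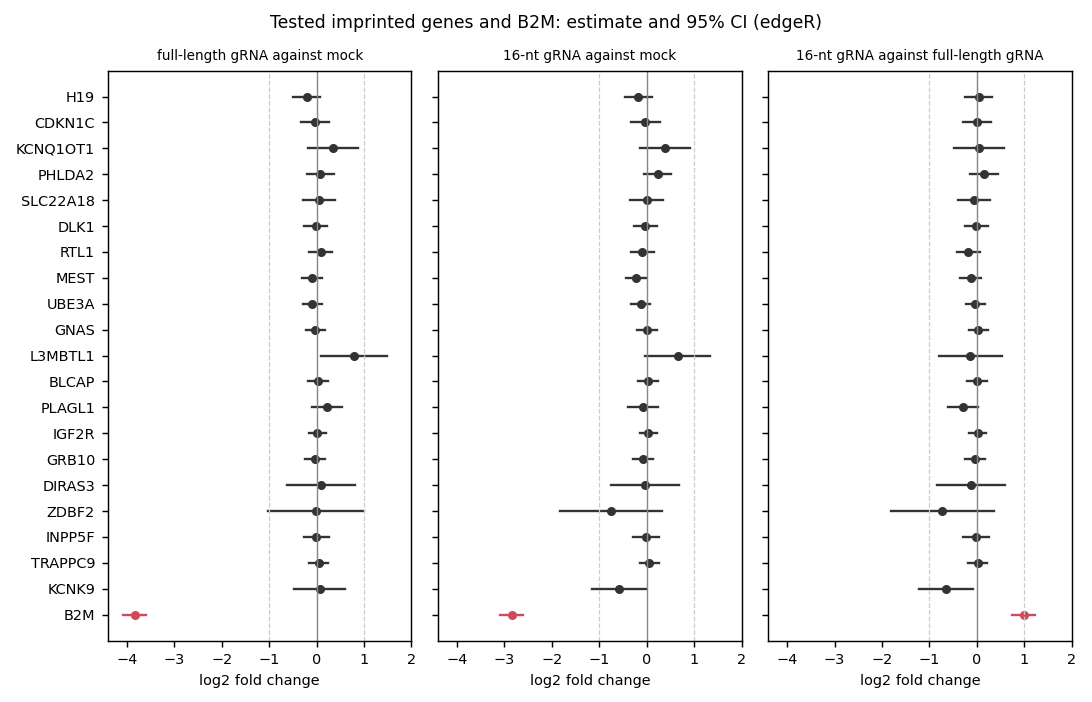
Log2 fold change (dot) and its 95% confidence interval (line) from edgeR for the 20 tested imprinted genes in black and B2M in red, in each of the 3 comparisons, with dashed lines at a 2-fold change. B2M lies at -3.84, -2.85 and 0.99, while the imprinted genes lie around 0, with wide intervals for L3MBTL1, DIRAS3, ZDBF2 and KCNK9.

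The tightest estimate among the abundant members was that of IGF2R, and DLK1, the most abundant, had a larger SE. DLK1 differed from mock by -0.02 with the full-length gRNA (SE 0.12) and by -0.03 with the 16-nt gRNA (SE 0.12). Leaving out 1 library at a time gave -0.16 to 0.08 and -0.17 to 0.07. GNAS counts were 12941, 18907 and 13191 in mock, 15076, 15424 and 12022 in the full-length group and 14476, 16045 and 13013 in the 16-nt group. Its estimates were -0.02 and 0.01 (SE 0.10 each). IGF2R counts were 10360, 13059 and 12539 in mock, 11479, 12847 and 10706 in the full-length group and 10200, 14430 and 11317 in the 16-nt group.

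IGF2R differed by 0.02 and 0.03 (SE 0.08 each), and its log2 CPM varied within groups with an SD of 0.0768. GRB10, an adapter that dampens insulin receptor signalling, had 3200, 4163 and 2969 counts in mock, 3430, 3727 and 2566 in the full-length group and 3113, 3624 and 2756 in the 16-nt group, with estimates of -0.04 and -0.07 (SE 0.10), which were 0.02 and -0.02 without both gRNA replicate 3 libraries. The groups overlapped for each of these genes. The estimates of CDKN1C were -0.03 and -0.03 (SE 0.14), or -0.20 to 0.17 and -0.20 to 0.18 with 1 library left out. H19 had -0.21 and -0.18 (SE 0.13), and its highest CPM was in mock replicate 2 (380, against 311 and 253 in the other mock libraries). Without that library the H19 estimates were -0.05 and -0.02.

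L3MBTL1, a reader of methylated histone tails related to Polycomb proteins, had the largest estimate with the full-length gRNA. Its CPM was 1.48, 1.09 and 2.15 in mock, 1.86, 2.71 and 3.57 in the full-length group and 1.68, 2.09 and 3.60 in the 16-nt group, from counts of 35 to 93. The highest mock library lay above the lowest libraries of both gRNA groups, and the highest value of each gRNA group was in its replicate 3. The estimate was 0.78 with the full-length gRNA (SE 0.32, unadjusted p = 0.0284, edgeR adjusted p = 0.992) and 0.65 with the 16-nt gRNA (SE 0.33). Without the replicate 3 libraries of both gRNA groups it was 0.55 and 0.28. Its within-group SD of 0.493 on the log2 scale was larger than that of 99.2% of genes of mean log2 CPM of at least 1. The gene lies at chr20:43489442-43550954 on GRCh38, and 25.0% of its exonic bases are shared with other genes, none of which had a count.

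KCNQ1OT1, the paternal noncoding RNA antisense to KCNQ1 (chr11:2608328-2699994), was highest in the same libraries. Its CPM was 31.6, 17.2 and 31.1 in mock, 28.6, 24.7 and 48.4 in the full-length group and 26.7, 33.6 and 43.9 in the 16-nt group. The lowest library was mock replicate 2 and the highest were both gRNA replicate 3 libraries, and the groups overlapped. The estimates were 0.35 (SE 0.25) and 0.39 (SE 0.25). Without the replicate 3 libraries of both gRNA groups they were 0.01 and 0.19, and without mock replicate 2 they were 0.11 and 0.15. The counted exon spans 91667 bases within KCNQ1, and whether reads were counted by strand is not given in the sources used here.

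MEST, an alpha/beta hydrolase usually made from the paternal copy (chr7:130486171-130506465), had the smallest p with the 16-nt gRNA. Its counts were 1878, 1902 and 1956 in mock, 1988, 1680 and 1574 in the full-length group and 1332, 1907 and 1602 in the 16-nt group. As CPM the mock libraries had 75.1, 59.5 and 71.1 and the 16-nt libraries 54.7, 59.5 and 62.0, so the groups overlapped through mock replicate 2. The estimate was -0.22 (SE 0.10, unadjusted p = 0.0419, edgeR adjusted p = 0.978), and leaving out 1 library at a time gave -0.32 to -0.15. With the full-length gRNA it was -0.09 (SE 0.10). Genes on the opposite strand cover 27.6% of the exonic bases of MEST. Among them is COPG2 (4.8% of the bases), with 32573 counts over all libraries. Whether reads were counted by strand is not given in the sources used here.

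KCNK9, a potassium leak channel, separated by gRNA length at very low counts. It had 25, 32 and 27 counts in mock, 32, 31 and 22 in the full-length group and 16, 21 and 17 in the 16-nt group. As CPM this was 1.00, 1.00 and 0.982, then 1.12, 1.06 and 0.924, then 0.658, 0.655 and 0.658, so all 16-nt libraries lay below all others. The estimate was -0.59 against mock (SE 0.27, unadjusted p = 0.0421, edgeR adjusted p = 0.978) and -0.66 against the full-length gRNA (SE 0.27, unadjusted p = 0.0262, adjusted p = 1.00). TRAPPC9, its neighbour, a trafficking complex subunit, differed from mock by 0.04 and 0.06 (SE 0.09).

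**Figure D4:**
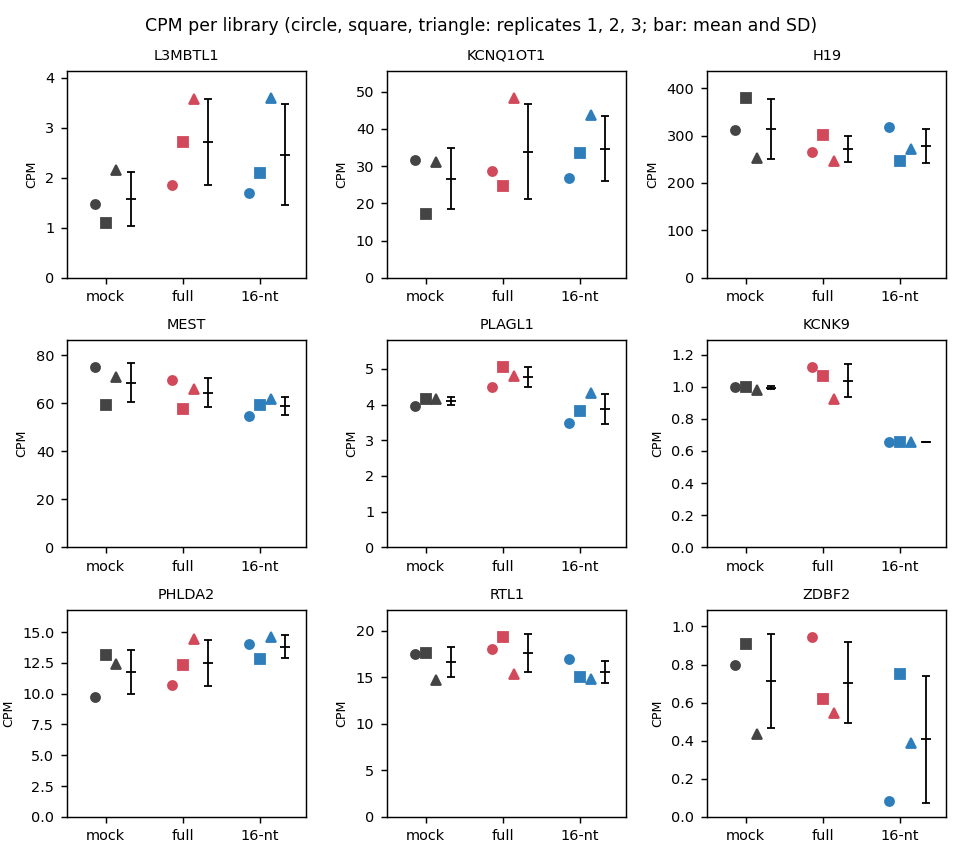
CPM in each library for the 9 imprinted genes with the smallest p-values in the comparisons of gRNA groups with mock and with each other, with the mean and SD of 3 libraries beside each group (circle, square and triangle are replicates 1, 2 and 3; axes start at 0). For L3MBTL1 and KCNQ1OT1 the highest libraries are the gRNA triangles (3.57 and 3.60; 48.4 and 43.9), and for KCNK9 the 16-nt libraries lie at 0.655 to 0.658 below the rest.

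Members whose groups did not overlap in CPM were counted beside the share over all genes. With the full-length gRNA 1 member, PLAGL1, had separate ranges, 5% of those tested against 6.89% of all genes. With the 16-nt gRNA there were 2, UBE3A and KCNK9, 10% against 9.21%. Between the gRNA groups there were 2, PLAGL1 and KCNK9, 10% against 5.59%. PLAGL1 (chr6:143940300-144064599), a zinc finger protein that slows growth, had 99, 133 and 114 counts in mock, 128, 147 and 114 in the full-length group and 85, 122 and 112 in the 16-nt group. As CPM, mock had 3.96, 4.16 and 4.15, the full-length group 4.49, 5.05 and 4.79, and the 16-nt group 3.49, 3.81 and 4.34. The estimate was 0.22 with the full-length gRNA (SE 0.15), -0.08 with the 16-nt gRNA (SE 0.15), and -0.30 between them (SE 0.15). Without both gRNA replicate 3 libraries these were 0.22, -0.16 and -0.38. UBE3A had 145, 139 and 139 CPM in mock and 137, 130 and 120 with the 16-nt gRNA, an estimate of -0.12 (SE 0.10) that was -0.07 without 16-nt replicate 3, its lowest library. None of these members passed the adjusted threshold.

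Of the rest, PHLDA2 differed by 0.08 and 0.23 (SE 0.14 each). Without mock replicate 1 these were -0.04 and 0.11, and without both gRNA replicate 3 libraries -0.03 and 0.18. RTL1, a retrotransposon-derived protein of the placenta, had 436, 564 and 405 counts in mock, 515, 563 and 365 in the full-length group and 411, 480 and 383 in the 16-nt group, and its estimate between the gRNA groups was -0.18 (SE 0.12), or -0.10 without full-length replicate 2. ZDBF2, a zinc finger protein, had 20, 29 and 12 counts in mock, 27, 18 and 13 in the full-length group and 2, 24 and 10 in the 16-nt group. The low value was that of 16-nt gRNA replicate 1. Its estimate with the 16-nt gRNA was -0.75 (SE 0.51), which was -0.31 without that library and -1.57 without 16-nt replicate 2. DIRAS3, a small GTPase, had 14 to 30 counts per library. DIRAS3, BLCAP, INPP5F (an inositol phosphatase) and SLC22A18 had estimates of 0.09 or less in size in both gRNA groups; that of DIRAS3 in the full-length group was 0.24 without both gRNA replicate 3 libraries.

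A further 61 names of imprinted genes were looked up, of which 52 were in the table, 14 passed the filter and 14 had no read. None of the 14 was called in any comparison by edgeR or DESeq2. SLC22A18AS, which is antisense to SLC22A18, had the smallest p in both comparisons with mock and was the only one under an unadjusted p of 0.05 in edgeR, while DESeq2 had 0. It passed the filter only through its gRNA libraries, in which it is higher (0 mock libraries reached the cutoff of 0.378 CPM), so its estimates against mock are shaped by the filter. It had 6, 6 and 5 counts in mock, 5, 12 and 11 in the full-length group and 12, 14 and 11 in the 16-nt group, with estimates of 0.76 (SE 0.47) and 1.14 (SE 0.45, unadjusted p = 0.0227, adjusted p = 0.978). CALCR, the calcitonin receptor, had -0.74 (SE 0.47) with the full-length gRNA and 0.66 (SE 0.47) between the gRNA groups, and it passed only through mock and 16-nt libraries (0 full-length libraries reached the cutoff), so the same holds. OSBPL5, a lipid transfer protein, had 0.14 (SE 0.11) with the 16-nt gRNA.

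Within the Prader-Willi region MKRN3, a ubiquitin ligase, was on, with 459, 713 and 529 mock counts, although SNRPN, MAGEL2 and NDN beside it were silent. It was 0.26 between the gRNA groups (SE 0.13). SNHG14, the long transcript that starts at SNRPN and runs across UBE3A, had 0, 9 and 0 counts in mock, 0 in each full-length library, and 5, 0 and 2 with the 16-nt gRNA.

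Of 20 genes that act on imprints or on DNA methylation, the TET dioxygenases included, 17 passed the filter. Of these, 0 were called or under an unadjusted p of 0.05 in any comparison, by edgeR or by DESeq2. TRIM28 was at 748 CPM in mock, DNMT1 at 319 and ZNF445 at 150. ZFP57 had 3 counts, all in mock replicate 2, and did not pass. The smallest p-values with the full-length gRNA were those of ARID4B, a subunit of a histone deacetylase complex, at -0.16 (SE 0.08) and CTCF, the insulator protein, at -0.15 (SE 0.08). With the 16-nt gRNA they were those of the methylcytosine dioxygenases TET2 at -0.13 (SE 0.10) and TET1 at -0.09 (SE 0.09). Between the gRNA groups they were ARID4B at 0.11 (SE 0.08) and ARID4A at 0.11 (SE 0.10).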

How the data were processed

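Raw, unnormalized read counts for each gene in the 9 libraries were deposited by the authors in 1 table. The submitters' processing notes name STAR 2.7.6a, featureCounts from Subread 2.0.1, Trim Galore 0.6.6, FastQC 0.11.9, bcl2fastq 2.20 and DESeq2 1.30.0, with GRCh38. Not given in the sources used here are the annotation release, strand setting and handling of reads over several genes, so counts of overlapping, antisense or nested members are uncertain. Coordinates and exon lengths are those of the deposited table. Groups and replicate numbers came from the sample titles.

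CPM was computed here from the counts and TMM-adjusted library totals. Testing used edgeR 4.0.16 (R 4.3.3), quasi-likelihood, two-sided, 1 fit of all 9 libraries with no replicate block, after filterByExpr by group (minimum count 10), with Benjamini-Hochberg adjustment over 15213 genes and a threshold of 0.05. DESeq2 1.42.0 was an alternative. Same-numbered libraries of the gRNA groups correlated in their deviations from the group means (0.361, 0.196 and 0.572), so their numbers were taken to pair them. With the block no call changed in that comparison, and PLAGL1 joined KCNK9 under an unadjusted p of 0.05. The SEs and p-values given for that comparison are those of the fit without the block unless the block is named. Intervals on ratios and the limits for counts of 0 cover counting error only, and 95% intervals of folds are edgeR's. The fit was tested on simulated data.

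Per-library values were given for the 4 members with the smallest p in each comparison, the 8 highest per kb, the pairs SNRPN and SNURF, PEG10 and SGCE, and H19 and IGF2, and the member with the lowest nonzero mock mean. From the lists of other imprinted genes and of imprinting machinery the 2 genes with the smallest p in each comparison were named. Other members were given by locus, range and estimate, and those that did not pass the filter by their counts. The per-library values of UBE3A and BLCAP, the genes SNHG14, ZFP57, TRIM28, DNMT1 and ZNF445, and the printed promoters were chosen after values were seen. Members and lists were chosen with earlier results of these data known. The imprinted copy of each member is background knowledge. Lists of K-562 identity genes and of markers of other cells served as a check.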

Additional observations from a re-analysis of the deposited data

Results flagged for a closer look

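The difference between the gRNA groups at B2M is given here because the 16-nt and full-length effects under the same contrast with mock differed by a direct test: the log2 difference was 0.99 (SE 0.12, edgeR adjusted p = 0.00580), with all 16-nt libraries (462, 714 and 423 counts) above all full-length libraries (309, 268 and 216). No imprinted gene met that condition.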

How the results depend on the processing

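The count of 0 imprinted genes called held under every alternative run for each of the 4 comparisons: RLE and upper-quartile scaling, no filter or a filter of 1 CPM in 3 libraries, the replicate block, DESeq2, each library left out in turn, and both gRNA replicate 3 libraries left out. It also held with only the groups compared, a fit made for the 3 comparisons of single groups. The lowest adjusted p of a member was 0.113, for KCNQ1OT1 without the filter with both ETR groups together. Members under an unadjusted edgeR p of 0.05 varied with the setting. Against mock, the block added KCNQ1OT1 and L3MBTL1 with the 16-nt gRNA, and KCNQ1OT1 with both groups together. Leaving out the filter added KCNQ1OT1 in all comparisons with mock. It also added H19 with the full-length gRNA and with both together, and L3MBTL1 with the 16-nt gRNA. KCNK9 dropped out without the filter, and MEST with upper-quartile scaling. The share of all genes was not counted there. Over all genes, 1 was called, and without the filter 6 with the full-length gRNA, 13 with the 16-nt gRNA, 4 between them and 27 with both together; the cause was not tested. Between the gRNA groups the count was 0 with only those groups fitted, where fewer samples were used, and 0 to 1 when 1 library was left out. The replicate block left 1 gene called in every comparison; for the comparisons with mock, same-numbered libraries did not all correlate (-0.191 to 0.209), so there the number is only a name. The fit of the gRNA groups alone with the replicate block was chosen after seeing the data. Estimates of members changed sign, with neither value past the threshold, in 10 of 158 values with the full-length gRNA and 5 of 158 with the 16-nt gRNA, and in 26 of 180 and 19 of 180 when 1 library was left out. Between the gRNA groups the numbers were 8 of 178 and 27 of 180, and with both together 9 of 138 and 25 of 180. L3MBTL1, DIRAS3, ZDBF2 and KCNK9 had under 100 counts in each library, and the part of depth in their intervals was not tested. The 14 members that did not pass the filter had few counts and were not tested in the main fit. Those with a count were among the 28 members in edgeR without the filter and in DESeq2, where 0 were called.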
